A study of Sparus aurata with 6 samples.

Results

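Of the 28793 probes of the gilthead sea bream array, 72 were called detected in skin mainly on one diet, by the strict call described below. They were detected in all 3 pools of one diet and in at most 1 pool of the other, and their diet means differed by at least 1 on the log2 scale, which is 2-fold. Among them, 26 probes, which carried 25 names of clones or contigs, were higher in fish fed SDPP, and 46 probes with 43 names were higher in fish fed the control diet. The whole array holds 15156 such names. Detection and the difference between the diets both chose these probes, so their differences are given as a description, with no test.

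The skin came from juvenile gilthead sea bream (Sparus aurata) fed for 95 days. The SDPP fish received the control formulation with a small part of its fishmeal replaced by 3% spray-dried porcine plasma, the protein-rich fraction of abattoir blood. They weighed 88.2 ± 1.6 g at the end. The control fish received the same formulation with all of its fishmeal and weighed 82.7 ± 3.2 g (both weights as the labels give them). Each diet had 3 pools of skin RNA, each from 4 fish taken 1 per tank, and 200 ng of each pool was labelled with Cy3 and hybridized to 1 array. Differences between tanks cannot be told apart from the diet, since every pool held fish from all tanks of its diet, and the spread between pools does not measure that between single fish.

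Fish skin is a mucosal surface. Its outer layer is made of living cells, among them goblet cells that secrete the mucus in which antimicrobial proteins lie, and pieces of whole skin also hold dermis and scales. A transcript near the detection limit in such tissue can be one of a rare cell type or one made at a low level in many cells, and in a piece of whole skin fewer cells of a type and less RNA per cell cannot be told apart. The files used here pair the probes with clone and contig names and not with genes, and 0 of the 15156 names matched the reference gene table of the species, so no gene, function, skin marker or sequence is given for any member.

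Values are the log2 of the processed signal minus the 75th percentile of the array, so that 0 marks a signal at that percentile. A probe was called detected on an array where at least 50% of its spots were well above background by the call of the scanner software. Detection differed widely between the arrays. In the SDPP pools 36.7%, 52.7% and 40.9% of the spots were detected (pools 1, 2 and 3), and in the control pools 44.9%, 28.2% and 50.1%. The lowest value that was called detected on each array varied in parallel, with -2.17, -3.69 and -2.65 in SDPP pools 1 to 3 and -2.93, -1.54 and -3.27 in control pools 1 to 3. Control pool 2 and SDPP pool 1 therefore required the highest normalized signals for a call, and SDPP pool 2 the lowest.

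Detection in all pools of one diet and in at most 1 pool of the other was rare. Over the array, 7893 probes were detected in all 6 pools and 12203 in none. No more than 69 probes (0.24% of the array) were detected in all SDPP pools and at most 1 control pool, and 94 probes (0.326%) showed the opposite pattern. With the minimum difference, 26 (0.0903%) and 46 (0.16%) of them were kept. Only 4 of the 26 SDPP members were undetected in every control pool, and only 6 of the 46 control members were undetected in every SDPP pool. All other members, 22 and 40, were detected in 1 pool of the diet in which they were dimmer.

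**Figure D1:**
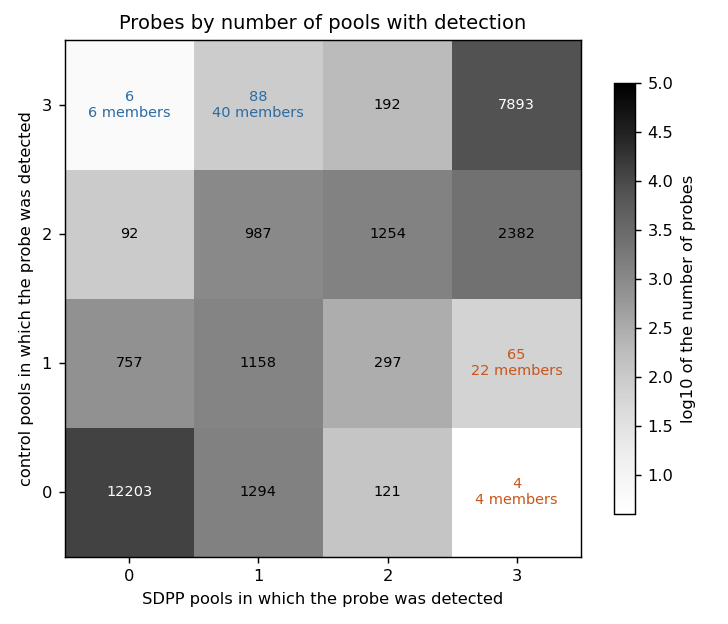
Number of probes by the number of SDPP pools (x axis) and of control pools (y axis) in which they were detected, with grey shading on a log10 scale and the number of members in the cells that hold any. The corner cells with detection in all pools of 1 diet and none of the other hold 4 probes for SDPP and 6 for control, and all 10 are members.

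The single exceptions came mostly from the arrays with the lowest detection limits. Among the 22 SDPP members detected in 1 control pool, that pool was control pool 3 for 18 probes, control pool 1 for 4 and control pool 2 for 0. Among the 40 control members detected in 1 SDPP pool, it was SDPP pool 2 for 39 probes, SDPP pool 1 for 1 and SDPP pool 3 for 0. The part of the detection limits in this pattern was not tested. Most undetected values were still positive signals by the looser call of the software, which asks only that a spot be significantly above background. By that call, 13 of the 26 SDPP members were present in all 3 control pools and 34 of the 46 control members in all 3 SDPP pools, and no member was absent from all 3 pools of its dimmer diet. "Mainly on one diet" thus describes the strict call, not absence of the transcript.

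Among the SDPP members the difference of SDPP minus control ran between 1.00 and 3.09 with a median of 1.35, and 3 of the 26 reached 2. The largest was CUST_3503_PI419285597, the only probe of the clone cDN09P0007E03.F.ab1. Its values were -0.13, -0.74 and 0.15 in SDPP pools 1 to 3, against -3.99, -1.61 and -4.38 in control pools 1 to 3, a difference of 3.09. All SDPP pools lay above all control pools, and control pool 2 was the highest of the controls. The probe is printed on 2 spots in rows 62 and 90, and these gave differences of 3.06 and 3.12. On the scanner's linear scale the spot in row 62 read 2046, 1093 and 2547 in the SDPP pools, against 117, 463 and 122 in the control pools. The software gave errors of 116 and 121 for control pools 1 and 3, as large as the signals themselves, so these signals do not give levels. Set against the lowest detected value of each control array, or the probe's own value where higher, the SDPP mean was 5.06-fold higher. The lowest detected value is no strict threshold. CUST_9082_PI419285025, for example, was undetected in control pool 1 at -1.55, above the -2.93 of that array. Such folds are therefore not strict lower bounds.

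**Figure D2:**
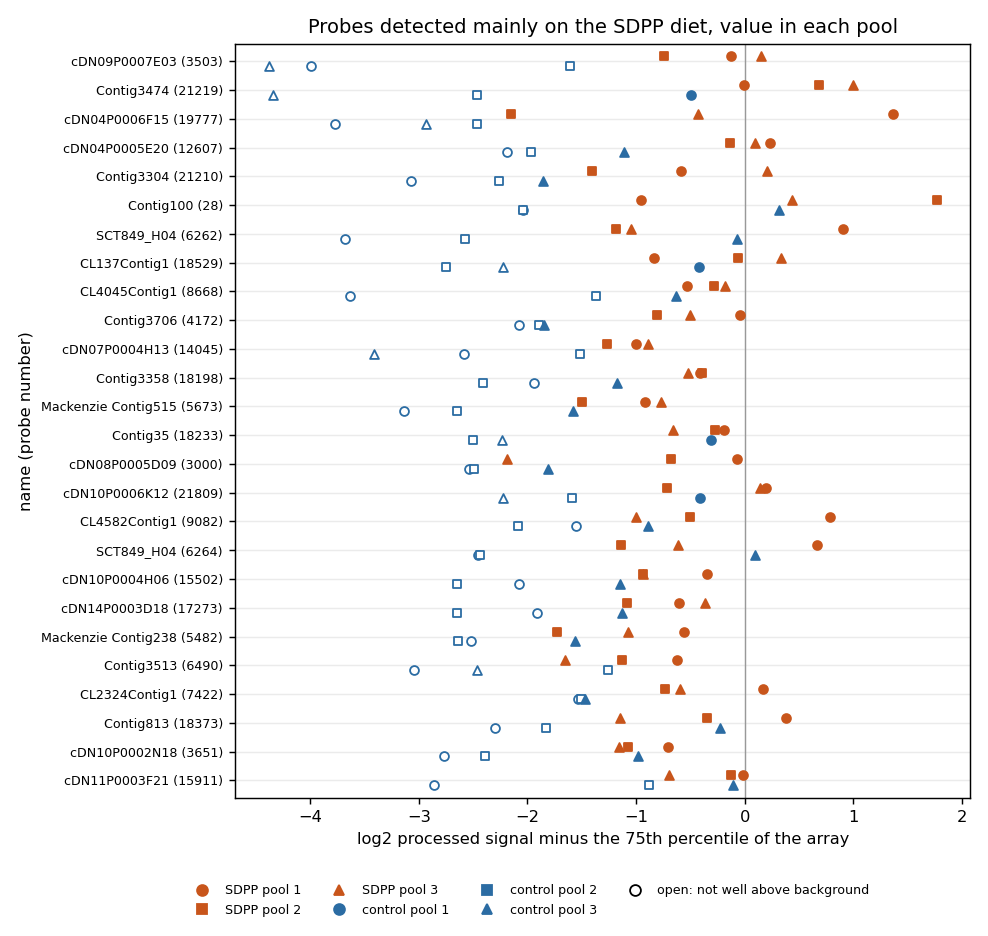
Normalized log2 signal (x axis) of the 26 probes detected mainly on SDPP, 1 row per probe with its name, largest difference at the top. Orange marks are SDPP pools and blue marks control pools, and open marks are values not well above background, which include every value of control pool 2.

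CUST_21219_PI419285025 of Contig3474 was next. It gave -0.01, 0.68 and 1.00 in the SDPP pools, against -0.49, -2.47 and -4.34 in the control pools, a difference of 2.99. The control pools spread over almost 4 log2 units here, and control pool 1, in which the probe was detected, came close to the lowest SDPP pool. The values of control pools 2 and 3 lay below the lowest detected values of their arrays, -1.54 and -3.27. With dim values raised to the detection limit the difference was 2.32. Within the 1 slide that carried arrays of both diets, SDPP pool 3 exceeded control pool 1 by 1.49. A second probe of the contig, CUST_21217_PI419285025, gave -1.11, 0.20 and -0.75 in the SDPP pools against -1.39, -2.56 and -4.51 in the control pools. The other probe of the contig was detected on no array.

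The clone cDN04P0006F15.F.ab1 was led by 1 SDPP pool. CUST_19777_PI419285025 gave 1.36, -2.15 and -0.43 in SDPP pools 1 to 3, against -3.77, -2.47 and -2.94 in the control pools, a difference of 2.65. It was detected in no control pool. Set against control values raised as for CUST_3503_PI419285597, the mean of the SDPP pools was 4.18-fold higher (2.06 on the log2 scale). A second probe of the clone, CUST_19778_PI419285025, read 1.70, -1.88 and -2.07 in the SDPP pools, against -3.83, -2.25 and -4.12 in the control pools, and SDPP pool 1 was the highest pool for both. Without SDPP pool 1 the difference of CUST_19777_PI419285025 was 1.77, and with the normexp background correction described below it was 1.39. Both are smaller than 2.06. Leaving out any other pool gave differences of CUST_19777_PI419285025 between 2.30 and 3.53. The other probe of the clone, CUST_19779_PI419285025, was detected in all pools but control pool 2 and differed by 0.31 between the diets.

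The naming rule gave 3 other SDPP members without overlap between the diets. CUST_12607_PI419285025 of the clone cDN04P0005E20.F.ab1 was even across the SDPP pools, with 0.23, -0.14 and 0.09 in the SDPP pools, against -2.19, -1.97 and -1.11 in the control pools. CUST_12608_PI419285025 of this clone was detected in SDPP pool 2 only, and the other probe of the clone, CUST_12609_PI419285025, on no array. CUST_21210_PI419285025 of Contig3304 gave -0.59, -1.41 and 0.21 in the SDPP pools, against -3.07, -2.26 and -1.85 in the control pools. The other probes of Contig3304 were detected in all 6 pools and differed by only 0.46 and 0.40. CUST_8668_PI419285025 of Seabream_2006-01-03-CL4045Contig1 gave -0.53, -0.28 and -0.18 in the SDPP pools, against -3.63, -1.37 and -0.63 in the control pools. Its control pool 3 was detected and close to the SDPP pools, and without control pool 1 its difference was 0.67. The other probes of this contig differed by -0.16 and 0.05.

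Of the other names of SDPP members, 3 were singled out after their values were seen, for the probes that share the name. All 3 probes of Seabream_2006-01-03-CL137Contig1 were higher in SDPP, by 1.61 for the member CUST_18529_PI419285025 and by 1.58 and 1.90 for the others. The member gave -0.84, -0.06 and 0.34 in the SDPP pools, against -0.42, -2.75 and -2.22 in the control pools, so that control pool 1 lay within the SDPP range. The pools of a diet differed widely for Contig100. Its member CUST_28_PI419285025 gave -0.95, 1.77 and 0.44 in the SDPP pools, against -2.04, -2.05 and 0.31 in the control pools, and CUST_29_PI419285025 gave the same order of pools with a difference of 1.57, whereas CUST_30_PI419285025, detected in all 6 pools, differed by 0.33. The clone SCT849_H04_JP3_4H4_009.ab1 had 2 members, with differences of 1.67 and 1.23, and in both of them control pool 3 lay above SDPP pools 2 and 3.

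Over the 26 SDPP members, all SDPP pools lay above all control pools in 13 (over all 28648 probes with 6 values, 6.22% did so). The rule that chose the members favours such a separation, so this count is no separate support for them. SDPP pool 1 was the lowest SDPP pool for 4 of the 26 members, pool 2 for 13 and pool 3 for 9. Over the 13059 probes detected on at least 3 arrays, these pools were the lowest for 31.7%, 28.7% and 39.6%. An SDPP member had to be detected in SDPP pool 1, the SDPP array with the strongest signal needed for detection. The part of this in the pattern was not tested. The median value of the members was -0.16, -0.74 and -0.60 in SDPP pools 1 to 3, against -2.38, -2.33 and -1.52 in control pools 1 to 3. Just inside the threshold were CUST_3651_PI419285597 (1.06) and CUST_15911_PI419285025 (1.00), and just outside it, with the same detection pattern, CUST_10760_PI419285025 (0.98) and CUST_18374_PI419285025 (0.95). Without control pool 1 the differences of CUST_3651_PI419285597 and CUST_15911_PI419285025 were 0.70 and 0.22, and without control pool 3 they were 1.60 and 1.59. Another probe of the clone of CUST_15911_PI419285025, CUST_15910_PI419285025, was detected in all pools. It went the other way, at -0.46 and without overlap between the diets, and CUST_15912_PI419285025 of that clone differed by 0.15. CUST_18374_PI419285025 is a probe of Contig813, another probe of which was a member with 1.08.

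The control members differed by -1.001 to -3.52, with a median of -1.36, and 7 of the 46 passed 2 in size. Contig3215 stood apart. All 3 of its probes were members and had the 3 largest differences of the group, and among member names with 2 or more probes it was the only one of which every probe was a member. CUST_3547_PI419285025 gave -3.13, -1.43 and -2.80 in SDPP pools 1 to 3, against 0.03, 1.28 and 1.87 in control pools 1 to 3, a difference of -3.52. CUST_3549_PI419285025 gave -2.72, -0.92 and -2.29 in the SDPP pools, against 0.22, 1.64 and 2.11 in the control pools, and differed by -3.30. CUST_3548_PI419285025 gave -2.70, -1.16 and -1.83 in the SDPP pools, against 0.15, 1.57 and 2.04 in the control pools, and differed by -3.15. The order of the 6 pools was the same for all 3 probes, with control pool 3 the highest, SDPP pool 2 the highest SDPP pool and the only one with detection, and SDPP pool 1 the lowest.

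**Figure D3:**
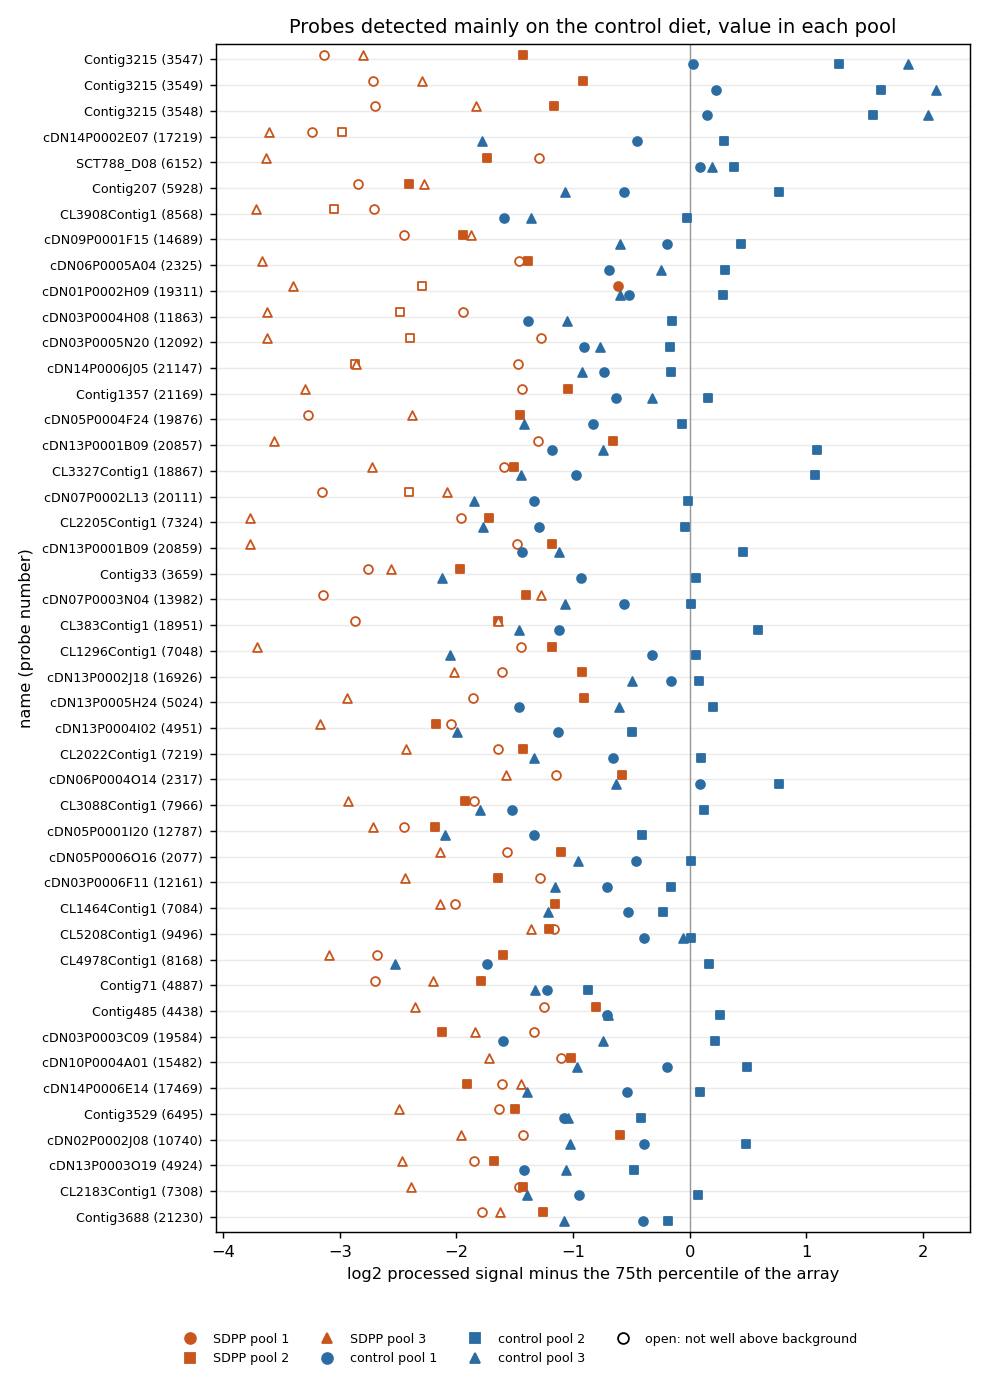
Normalized log2 signal (x axis) of the 46 probes detected mainly on the control diet, 1 row per probe with its name, largest difference at the top, with symbols for the SDPP pools in orange and the control pools in blue and open marks for values not well above background. The 3 probes of Contig3215 lead, and control pool 2 (blue squares) is the highest control pool in 43 of the 46 rows.

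Each probe of Contig3215 is printed on 2 spots, which lie in rows 60 and 303, 183 and 251, and 72 and 516. The 6 spots gave differences between -3.56 and -3.06. On the linear scale the spot in row 60 read 283, 640 and 303 in the SDPP pools, against 1804, 3248 and 8467 in the control pools. Within the shared slide the difference of SDPP pool 3 minus control pool 1 was -2.83, -2.52 and -1.98. Leaving out any 1 pool kept the 3 differences between -4.03 and -2.75. Normexp background correction started from the median spot and background signals instead of the processed signals, and added an offset of 50. With it the differences were -2.51 for CUST_3547_PI419285025 and -2.23 for CUST_3548_PI419285025.

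The member of the clone cDN14P0002E07.F.ab1 was undetected in all SDPP pools. CUST_17219_PI419285025 gave -3.24, -2.98 and -3.61 in the SDPP pools, against -0.45, 0.29 and -1.78 in the control pools, a difference of -2.63. Set against SDPP values raised as for CUST_3503_PI419285597, the control mean was 3.87-fold higher. The other probes of the clone differed in the same direction. CUST_17220_PI419285025, detected in 1 SDPP pool and 2 control pools, was at -2.12, and CUST_17218_PI419285025, detected in 1 control pool, at -1.18.

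CUST_6152_PI419285025 of the clone SCT788_D08_JP2_3_D8_058.ab1 gave -1.29, -1.74 and -3.63 in the SDPP pools, against 0.09, 0.38 and 0.19 in the control pools, a difference of -2.44 that was even on the control side only. The other probes of this clone were detected on no array and differed by -0.18 and -0.22. CUST_5928_PI419285597, the only probe of Contig207, gave -2.84, -2.40 and -2.28 in the SDPP pools, against -0.56, 0.76 and -1.07 in the control pools, and its 2 spots differed by -2.04 and -2.40.

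Of the 6 control members undetected in every SDPP pool, CUST_17219_PI419285025 had the largest fold against raised values. CUST_20111_PI419285025 of the clone cDN07P0002L13.F.ab1 had the smallest, 2.23-fold higher in the control diet. The 4 SDPP members without detection in control pools had such folds between 2.12 and 5.06. All these folds belong to the main setting and to the mean of all pools of the brighter diet, and none is a strict lower bound. Besides cDN14P0002E07.F.ab1, 4 names of control members were singled out after their values were seen because another of their probes also reached 1 in size. They were cDN13P0001B09.F.ab1 with 2 members (-1.56 and -1.44) and another probe at -1.08, Contig1357 (-1.66 with others at -1.43 and -0.99), Seabream_2006-01-03-CL3327Contig1 (-1.49 with others at -1.20 and -1.15) and cDN13P0002J18.F.ab1 (-1.33 with others at -1.37 and -1.03). In cDN13P0002J18.F.ab1 the probe CUST_16924_PI419285025 was detected in all 6 pools and gave -0.62, -0.29 and -0.63 in the SDPP pools, against 0.62, 0.74 and 0.19 in the control pools, with no overlap.

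Over the 46 control members, all control pools lay above all SDPP pools in 35 (6.64% of the 28648 probes did so). The rule that chose the members favours such a separation, so this count is no separate support for them. The pools were uneven within each diet. Control pool 2 was the highest control pool for 43 of the 46 members, whereas it was the highest for 36.9% of the 13059 probes detected on at least 3 arrays, and SDPP pool 3 was the lowest SDPP pool for 31 members, against 39.6% of those probes. The median value of the members was -1.71, -1.50 and -2.45 in SDPP pools 1 to 3, against -0.71, 0.09 and -1.07 in control pools 1 to 3. A control member had to be detected in control pool 2, the array with the strongest signal needed for detection, and the part of this in the pattern was not tested. Just inside the threshold were CUST_7308_PI419285025 (-1.003) and CUST_21230_PI419285025 (-1.001), and just outside it CUST_17085_PI419285025 (-0.98) and CUST_11426_PI419285025 (-0.96). Without control pool 2, CUST_7308_PI419285025 was at -0.59 and CUST_11426_PI419285025 at -0.46, and without SDPP pool 3 CUST_11426_PI419285025 was at -0.31.

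In a fit of limma to the 13059 probes detected on at least 3 arrays, with Benjamini-Hochberg adjustment, 0 passed an adjusted p of 0.05, and 1920 passed the same threshold before adjustment, 970 of them higher in SDPP (7.43%) and 950 lower (7.27%). The methods' t-test gave 0 after adjustment and 1656 before it. No member passed after adjustment.

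The other probes of the members' names were not chosen by the rule, although they measure the same RNA pools on the same arrays. Of the 25 names of SDPP members, 4 had no other probe, and the names with more than 1 probe gave 40 other probes with a value on all 6 arrays. Among these, 34 differed in the direction of the member, but mostly by less, with a median of 0.37 and a range of -0.46 to 2.65, and 7 reached 1. Of the 43 names of control members, 12 had no other probe, and the others gave 59 probes, of which 53 differed in the direction of the member, with a median of -0.32 and a range of -2.12 to 0.39, and 8 reached 1 in size. Of the other probes, 6 of the 40 and 31 of the 59 were detected on no array, and 4 and 25 of these had the sign of the member. Signs of undetected probes may reflect background, and no share over all probes is given beside these counts, so they are no support for the members.

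**Figure D4:**
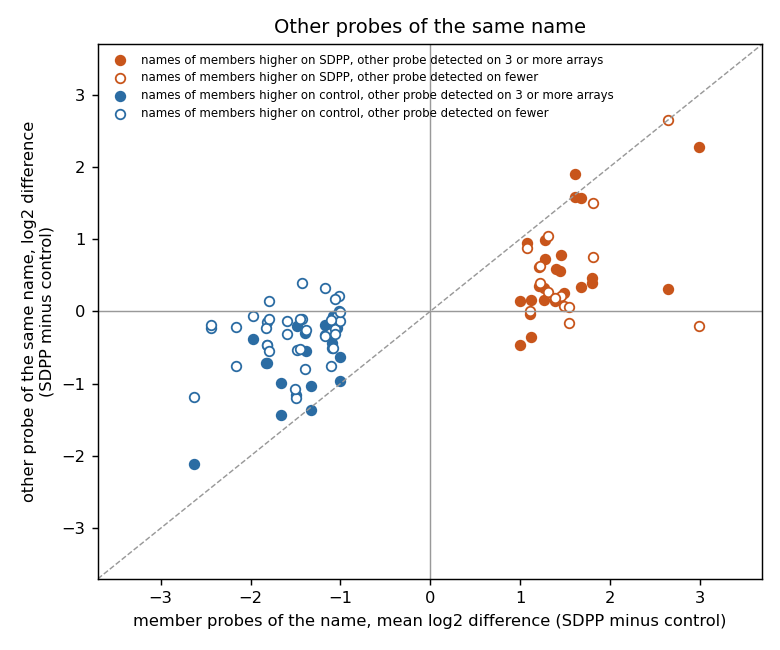
Log2 difference of SDPP minus control of each other probe of a member's name (y axis) against the mean difference of the member probes of that name (x axis), orange for names of SDPP members and blue for names of control members, filled where the other probe was detected on at least 3 arrays. Most points lie nearer to 0 than the dashed line of equal differences, and 34 of 40 and 53 of 59 have the sign of the member.

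Restricted to other probes detected on at least 3 arrays, 22 of 25 for the SDPP members and 20 of 20 for the control members had the sign of the member. For comparison, among probes with a difference of at least 1 that were no members, 195 of 213 such pairs (91.5%) shared their sign. At the same time, 8 names of SDPP members and 13 of control members had no other probe that reached 0.5 in the direction of the member. These counts include other probes that were detected on no array, which were 6 of the 40 and 31 of the 59. Another probe reached 1 in that direction for 6 names of SDPP members and 5 of control members.

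The members were not spread evenly over the surface of the array, a feature that the rule did not use. The array has 532 rows, here divided into 7 bands of 76 rows that hold between 13.8% and 14.5% of the spots each. The band of rows 457 to 532 held 16 of the 32 spots of SDPP members (50.0%), and 13 of the 20 SDPP members printed on a single spot. The band of rows 381 to 456 held 24 of the 64 spots of control members (37.5%), and 15 of the 28 control members printed on a single spot. Together, these 152 rows held 65.6% of the spots of SDPP members and 51.6% of those of control members, against 28.3% of all spots.

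**Figure D5:**
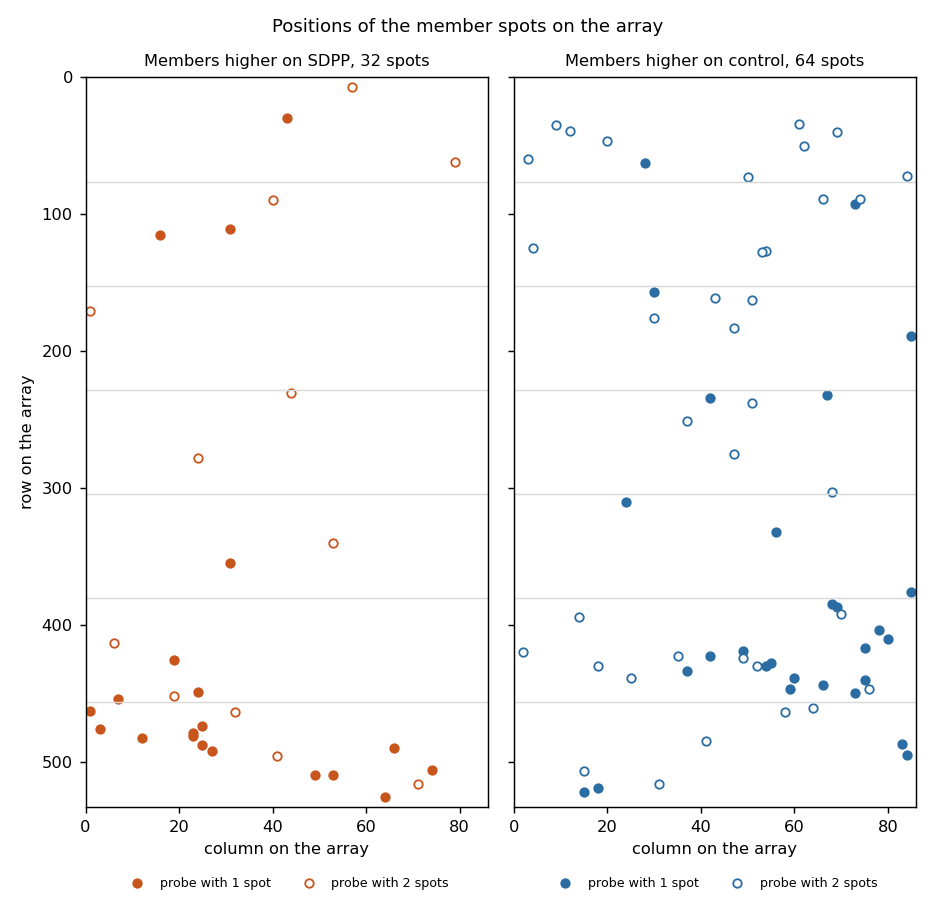
Row (y axis, row 1 at the top) and column (x axis) of each member spot on the array, SDPP members at left (32 spots) and control members at right (64 spots), filled for probes printed on 1 spot and open for probes printed on 2, with grey lines between the 7 bands. Spots of SDPP members crowd in the lowest band (16 of 32) and those of control members in the band above it (24 of 64).

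Signals on single arrays also differed between places on the surface. In rows 381 to 456 the median spot of SDPP pool 3 lay at -0.12 relative to the mean of the 6 arrays, and 35.9% of the spots of control pool 2 were detected, against 23.7% to 31.2% in the other bands of control pool 2. Within it, the block of rows 419 to 456 and columns 52 to 68 held 6 spots of control members, and there SDPP pool 3 lay at -0.21 and control pool 2 at 0.60 relative to that mean (medians of 299 spots detected on at least 3 arrays). The block of rows 457 to 494 and columns 18 to 34 held 6 spots of SDPP members, with SDPP pool 1 at 0.25, control pool 1 at -0.18 and control pool 2 at -0.28. Both blocks were chosen after their values were seen. The blocks of rows 343 to 380 with columns 1 to 17 and 18 to 34, in which control pool 2 lay at -0.33 and -0.34, held 0 and 1 member spots. Over all member spots the median SDPP minus control difference of their block was 0.05 for SDPP members and -0.03 for control members, against 0.01 for all spots. Each spot was then centred on the median of its block of 38 rows by 17 columns, a step chosen after seeing the data. All 26 and all 46 members kept their direction, 20 and 39 kept a size of at least 1, and the medians were 1.24 and -1.32. Since the members were chosen for a size of at least 1, the kept direction is no support for them. The part of the array surface in their differences was not tested.

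Probes printed on 2 spots show each difference at different places of the array. The mean of these same spots chose the members, so a shared direction of the spots is no support for them. Of the members, 48 of 72 (66.7%) had a single spot, against 54.8% of all probes. In the 6 SDPP members and 18 control members with 2 spots, both spots had the direction of the member, and both reached 1 in size in 4 and 11 of them. The 2 spots lay farthest apart for CUST_6495_PI419285597 of Contig3529, whose spots in rows 39 and 447 gave differences between the diets of -0.33 and -1.73, and for CUST_5024_PI419285597 of the clone cDN13P0005H24.F.ab1, whose spots in rows 394 and 430 gave -0.40 and -2.15. These 2 probes were singled out after their values were seen. Members with all spots in rows 1 to 380 numbered 6 for SDPP and 16 for control.

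Within the shared slide, SDPP pool 3 was above control pool 1 for 25 of the 26 SDPP members (62.8% of all probes with 6 values) and below it for all 46 control members (37.2%), with medians of 1.56 and -1.68. The exception was CUST_18233_PI419285025 of Contig35, at -0.35. Both pools are among those whose values chose the members, so these counts are no separate support for the differences. All SDPP arrays lay in one position of their slides and all control arrays in another, so position on the slide and diet cannot be told apart. SDPP pools 1 to 3 lay on slides 1, 2 and 3 and control pools 1 to 3 on slides 3, 4 and 5. The slides were scanned in that order. Apart from the shared slide, slide and scan order thus cannot be told apart from the diet either.

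The kinds of names were mixed. Names of the cDN series, which carry 52.1% of all probes, gave 10 of the SDPP members (38.5%) and 24 of the control members (52.2%). Of these, names beginning with cDN13, 2.71% of all probes, gave 6 control members, both members of cDN13P0001B09.F.ab1 included, and no SDPP member. Names beginning with cDN10, 3.75% of all probes, gave 3 SDPP members and 1 control member. Both prefixes were singled out after their values were seen. The remaining members were contigs and SCT clones, with 16 in SDPP and 22 in control.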

How the data were processed

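The authors scanned 6 one-colour arrays and deposited a table of linear intensity values per array, corrected for background and spatial trends by Feature Extraction 10.7.3.1 (per the file headers) and not normalized between arrays. Signals near background had been replaced by small positive values, which limits low values. The log2 table deposited for the series holds background-subtracted signals without normalization between arrays and served as an alternative. Control and outlier-flagged spots were dropped, each processed signal was taken as log2 relative to the 75th percentile of its array, and spots of a probe were averaged. No spot was saturated (0 on every array). Probes were compared with limma 3.58.1 in R 4.3.3 where detected on at least 3 arrays, tested on simulated data.

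The members and lists were chosen with earlier results of these data known. Names were given to all probes of a name that were all members, to the 6 largest differences without overlap and to 2 probes on each side of the threshold, in each direction. Planned lists of annotated genes and markers could not be applied, since no annotation was used here. The slide as a random block could not be fitted. Alternatives were other detection calls, thresholds and normalizations, normexp, the log2 table, flagged spots and leaving out each pool. The number of arrays limits the precision.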

Additional observations from a re-analysis of the deposited data

How the results depend on the processing

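The differences of the 20 named probes were recomputed 297 times, and 0 changed sign and 12 moved by more than the spread between pools. These probes were chosen for the size of their difference, so an unchanged sign is no support for them. Against 26 SDPP and 46 control members, the looser detection call gave 39 and 70 (3 and 1 of them shared), no detection at all in the other diet 4 and 6, a difference of at least 1.5 gave 9 and 16, no minimum 69 and 94, and normexp correction 7 and 15. Without normalization there were 37 and 28, so that 56.9% were SDPP members, against 36.1% in the main setting, 45.2% with quantile and 46.2% with median normalization. No normalization also moved the median difference of the tested probes by 0.20. The log2 table deposited for the series gave 27 SDPP and 32 control members, 23 and 31 of them shared with the main setting. With it, 45.8% were SDPP members. Among settings added after the data were seen, dim values raised to the detection limit gave 17 SDPP and 43 control members, and probes with at least 2 spots gave 6 and 18.

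Leaving out 1 pool gave 31 to 106 SDPP members and 40 to 106 control members. Detection was asked in all remaining pools of a diet and still allowed in 1 pool of the other. With a pool fewer these conditions are easier to meet, so higher counts do not by themselves show dependence on the pool left out. A member still meets the detection conditions with a pool fewer, so one that was lost fell below a difference of 1 in size. SDPP members numbered 68 without SDPP pool 1, 85 without SDPP pool 3, 60 without control pool 1 and 106 without control pool 3. With SDPP pools 1, 2 and 3 left out in turn, 16, 25 and 26 of the original 26 remained. With control pools 1, 2 and 3 left out in turn, 18, 18 and 24 of them remained. Control members numbered 91 without SDPP pool 2, 97 without control pool 1 and 106 without control pool 2, and the last held 18 of the original 46. Without SDPP pool 3 there were 40 control members, 25 of them among the original 46.

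The share of other probes with the member's direction, undetected probes included, was 85.0% for SDPP and 89.8% for control members. It was 95.6% and 74.5% with quantile normalization, 100% and 77.8% with normexp and 75% for control members without normalization. Leaving out a pool gave 58.1% to 91.3% and 59.8% to 90.4%. For the moved values the cause was not tested.

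The number of probes at an unadjusted p under 0.05 in limma (1920, 970 of them higher in SDPP and 950 lower) was 753 without normalization (474 and 279), 2143 with median normalization (1644 and 499) and 1142 to 2215 on leaving out a pool, with 1142 without SDPP pool 3. After adjustment 1 probe passed without control pool 2 (limma, adjusted p = 0.012) and 0 otherwise. With the pool number as a replicate block it was 2042. The deviations of same-numbered pools correlated at -0.12, 0.12 and 0.08. SDPP pools 1 and 3 correlated best with control pools of another number, and SDPP pool 2 with control pool 2. With 3 pools per diet, such weak correlations cannot settle whether the numbers pair the pools, and the main setting did not pair them. Signals near background limit every difference against an undetected pool.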
